A study of Mus musculus with 8 samples.

Results

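Levels of 10 glucocorticoid-induced genes were compared between the retinas of 4 Rbfox2 KD and 4 control mice. The genes were Fkbp5, Tsc22d3, Sgk1, Zbtb16, Klf9, Ddit4, Mt1, Mt2, Plin4 and Hif3a, chosen by name as classic targets of the glucocorticoid receptor. Earlier results of these data were known when the genes were chosen. All 10 were among the 17500 genes of the deposited table, and all 10 were among the 16797 genes that passed the filter on low counts and were tested. Every one of the 10 had a lower mean estimate in Rbfox2 KD retinas, by a log2 fold change of only -0.03 for Sgk1 and Ddit4 and -0.05 for Klf9. The estimates of Sgk1 and Ddit4 turned positive in some alternative fits. The median log2 fold change of all genes tested was 0.0016. Of the 10, 7 had an unadjusted p under 0.05, and none passed after adjustment over all genes. Of all genes tested, 6.87% were lower and 6.42% higher at that unadjusted level.

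Glucocorticoids are adrenal steroid hormones that are released in a daily rhythm and under stress. They enter cells and bind the glucocorticoid receptor, a transcription factor that an Hsp90 chaperone complex holds in the cytoplasm until hormone binds, after which it moves to the nucleus and binds response elements near its target genes. In the rodent retina the receptor is known above all from Müller glia. The genes studied here are induced by it in many tissues, although several also answer to metals, hypoxia, cell stress or the circadian clock.

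Rbfox2 is an RNA-binding protein that regulates splicing. The Rbfox2 KD mice, which the series also calls Rbfox2-/-, carried floxed Rbfox2 on both alleles (Rbfox2 fl/fl) and a tamoxifen-activated Cre recombinase. Cre was not restricted to the retina, and Rbfox2 in other organs was not measured here. The controls were Rbfox2 fl/+ mice of the same age. All were 6 months old on a C57BL/6J background, and a tamoxifen period of 4 months is entered on the label of each mouse in both groups. The methods describe tamoxifen for the fl/fl animals and name corn oil as vehicle without saying which mice received it. Tamoxifen-treated mice were housed singly according to the methods. If the controls had no tamoxifen, drug exposure, single housing and genotype cannot be told apart. Whether the controls carried Cre is not stated. Whole retinas were dissected at one morning hour and sequenced as poly(A)-selected libraries, 1 per mouse. Hormone was not measured in any file used here.

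Library totals on genes were 160630226 to 211283591 counts, and no 2 libraries of the same group agreed within sampling noise. Levels are given in CPM, the counts of a gene scaled to a normalized library size common to all mice, where 3 counts, taken as the floor, equal 0.0144 to 0.0189 CPM. Rbfox2 itself had 53.6 to 59.4 CPM in Rbfox2 KD and 144 to 157 CPM in control retinas. M901 and M902 had 277506 and 275967 counts of Xist, which is made from the inactive X chromosome, against 312 to 426 in the other 6 mice, and stood apart on the first principal component (40.5% of the variance). M909 stood apart on the second (19.2%) and carried keratins of surface epithelium, a list whose summed level was 97.7 CPM there and 1.27 to 8.75 CPM in the others. Photoreceptor markers such as Gnat1, the rod transducin subunit, were abundant in all libraries. In whole tissue, fewer cells of a type and less RNA per cell cannot be told apart.

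Promoter sequences are shown first for 4 windows, those of Sgk1, Fkbp5, Mt1 and Mt2, each with 1 kind of searched element marked. RefSeq windows on GRCm38.p6, from 250 bases before to 50 bases after a transcript start, were given for 9 of the 10 genes, 16 windows in all. Zbtb16 was not matched. Positions count from 1 at the first transcribed base, and both strands were searched. The full palindromic glucocorticoid response element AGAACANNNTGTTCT was found in 3 of 32851 windows of all genes (0.00913%), and 1 of these 3 belonged to Sgk1, with the element starting at position -189. The metal response element, spelled TGCACNC or TGCGCNC, occurred in 25.7% of all windows. It was found in 5 of the 16 windows, 1 each of Hif3a, Sgk1, Ddit4, Mt1 and Mt2, of which the Mt1 window held 3 copies and that of Mt2 held 4. The E-box CACGTG, bound by clock proteins among others, occurred in 7.15% of all windows and in 1 window each of Fkbp5 and Sgk1. The 4 windows are printed 5′ to 3′ up to 30 bases after the start, with the element named for each gene in capitals: the response element in Sgk1, the E-box in Fkbp5 and the metal response elements in Mt1 and Mt2.
Sgk1 (chr10:21993640-21993919, plus strand): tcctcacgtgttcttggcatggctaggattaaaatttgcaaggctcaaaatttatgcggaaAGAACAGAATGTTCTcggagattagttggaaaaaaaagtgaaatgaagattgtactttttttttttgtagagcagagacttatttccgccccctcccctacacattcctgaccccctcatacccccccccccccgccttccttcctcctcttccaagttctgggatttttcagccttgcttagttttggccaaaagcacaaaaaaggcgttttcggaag
Fkbp5 (chr17:28486120-28486399, minus strand): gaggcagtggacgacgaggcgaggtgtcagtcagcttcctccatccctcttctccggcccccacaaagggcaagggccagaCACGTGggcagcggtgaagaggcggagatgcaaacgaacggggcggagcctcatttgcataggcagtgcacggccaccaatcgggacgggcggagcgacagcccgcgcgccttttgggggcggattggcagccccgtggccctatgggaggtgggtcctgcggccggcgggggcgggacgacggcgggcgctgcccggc
Mt1 (chr8:94178839-94179118, plus strand): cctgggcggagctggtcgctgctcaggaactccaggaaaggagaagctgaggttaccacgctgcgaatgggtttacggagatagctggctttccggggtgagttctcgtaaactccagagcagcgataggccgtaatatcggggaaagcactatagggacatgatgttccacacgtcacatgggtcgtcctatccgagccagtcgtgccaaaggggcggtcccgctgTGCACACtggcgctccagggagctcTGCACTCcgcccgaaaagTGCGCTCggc
Mt2 (chr8:94172368-94172647, plus strand): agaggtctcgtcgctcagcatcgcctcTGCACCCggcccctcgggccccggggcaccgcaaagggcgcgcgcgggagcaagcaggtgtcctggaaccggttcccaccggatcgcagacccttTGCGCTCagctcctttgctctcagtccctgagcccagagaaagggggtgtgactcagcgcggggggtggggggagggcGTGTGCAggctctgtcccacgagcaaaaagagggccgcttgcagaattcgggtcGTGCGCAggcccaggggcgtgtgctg

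The half-site TGTTCT, which is also part of the full element, occurred in 19.0% of all windows and in 4 of the 16 windows studied, those of Sgk1 and Tsc22d3. The core ACGTG of hypoxia response elements, which is contained in the E-box, occurred in 19.6% of all windows and in windows of Mt1, Sgk1, Ddit4, Fkbp5 and Klf9. These are matches of letters and not measured binding, and elements outside the windows were not searched.

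Per length, as deposited FPKM, the 10 genes spanned a wide range in control retinas. Sgk1 was the most abundant with a median of 140.4 FPKM, followed by Mt1 with 84.4 and Ddit4 with 79.7, whose ranges over the controls overlapped. Klf9 followed with 48.4, Mt2 with 29.5, Tsc22d3 with 15.7 and Fkbp5 with 12.3 FPKM, each apart from the next in the order. Zbtb16 (2.49 FPKM), Hif3a (2.21 FPKM) and Plin4 (0.872 FPKM) were the lowest, with ranges that overlapped between neighbours. In Rbfox2 KD retinas the order was the same except that Ddit4 (78.8 FPKM) stood above Mt1 (57.7 FPKM), with overlapping ranges. The 3 least abundant genes were also the 3 with the largest fold changes, and Sgk1, Ddit4 and Klf9, 3 of the 4 most abundant, were those with the smallest.

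**Figure D1:**
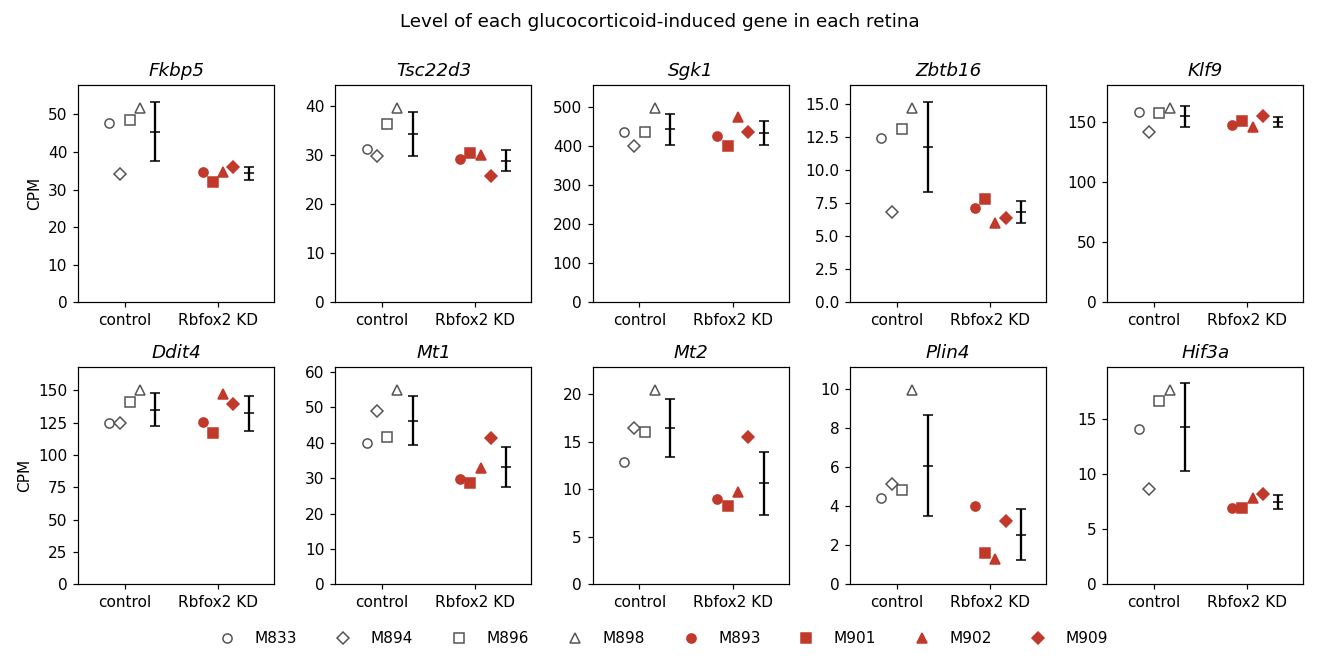
Level of each of the 10 genes in CPM (vertical axes from 0) in every control (open grey symbols) and Rbfox2 KD (filled red symbols) retina, with group mean and SD (n = 4) as black bars. All Rbfox2 KD mice lie below all controls for Plin4 and Hif3a, and control M894 (open diamond) lies near the Rbfox2 KD mice for Fkbp5, Zbtb16 and Hif3a.

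Fkbp5 (chromosome 17 of GRCm38, 28399094 to 28517527, minus strand) encodes a co-chaperone that joins the receptor complex and lowers its affinity for hormone, and its induction is a standard readout of receptor activity. Its level was 47.7 CPM in M833, 34.0 in M894, 48.5 in M896 and 51.6 in M898 among controls, and 34.6, 31.9, 34.6 and 36.1 CPM in the Rbfox2 KD mice M893, M901, M902 and M909. Thus 3 controls stood above all Rbfox2 KD mice and M894 stood among them. Group means were 34.3 ± 1.73 CPM (SD, n = 4) and 45.4 ± 7.81 CPM (SD, n = 4), a log2 fold change of -0.41 (95% interval -0.65 to -0.16) with an unadjusted p of 0.00447 and an adjusted p of 0.216 by the edgeR quasi-likelihood test (Benjamini-Hochberg). The exact two-sided permutation test gave p = 0.114, where 0.0286 is the lowest possible with 4 mice in each group.

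Tsc22d3 (chromosome X, 140539528 to 140600659, minus strand) encodes GILZ, a leucine zipper protein that mediates part of the anti-inflammatory action of the hormone. Controls M833, M894, M896 and M898 had 31.3, 29.8, 36.4 and 39.5 CPM, and M893, M901, M902 and M909 had 29.1, 30.5, 30.02 and 25.8 CPM. Only M894 among the controls was within the Rbfox2 KD range. The difference was a log2 fold change of -0.25 (95% interval -0.45 to -0.05; unadjusted p = 0.0213, adjusted p = 0.2999 by edgeR's quasi-likelihood test; exact permutation p = 0.0857). The gene is X-linked, and M901 and M902, which had high Xist, were the 2 highest of the 4 Rbfox2 KD mice.

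Sgk1 (chromosome 10, 21882184 to 21999903, plus strand) encodes a kinase that controls ion channels and transporters. Its level was 436, 402, 438 and 498 CPM in M833, M894, M896 and M898, and 425, 400.2, 474 and 437 CPM in M893, M901, M902 and M909. The groups covered nearly the same range. The log2 fold change was -0.03 with a 95% interval of -0.19 to 0.13 (unadjusted p = 0.675, adjusted p = 0.890, edgeR quasi-likelihood test), so that no difference was detectable and changes within that interval could have been missed. This was the gene with the full response element in its promoter window printed above.

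Ddit4 (chromosome 10, 59949669 to 59951834, minus strand) encodes REDD1, an inhibitor of the growth kinase complex mTORC1 that is induced by hormone, hypoxia and stress. Levels were 125, 125, 141 and 149.96 CPM in M833, M894, M896 and M898, and 126, 117, 147 and 139.5 CPM in M893, M901, M902 and M909. High and low mice occurred in both groups, and the log2 fold change was -0.03 (95% interval -0.21 to 0.15, unadjusted p = 0.723, adjusted p = 0.910, edgeR quasi-likelihood test). Sgk1 and Ddit4 had the same 2 lowest Rbfox2 KD mice, M893 and M901, and both had their highest Rbfox2 KD level in M902.

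Zbtb16, Klf9 and Hif3a encode transcription factors. Zbtb16 (chromosome 9, 48654297 to 48836222, minus strand), a zinc finger repressor also called PLZF, had 12.4 CPM in M833, 6.81 in M894, 13.1 in M896 and 14.7 in M898, against 7.16, 7.81, 5.99 and 6.40 CPM in M893, M901, M902 and M909. Control M894 was again within the Rbfox2 KD range, and the other 3 controls were above it. The Rbfox2 KD mean of 6.84 ± 0.808 CPM (SD, n = 4) was 58.2% of the control mean of 11.8 ± 3.43 CPM (SD, n = 4), a log2 fold change of -0.78 (95% interval -1.23 to -0.33, unadjusted p = 0.00306, adjusted p = 0.192 by edgeR's quasi-likelihood test, exact permutation p = 0.0857).

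Klf9 (chromosome 19, 23141226 to 23168134, plus strand), a Krüppel-like factor that answers to glucocorticoid and thyroid hormone, had 159, 142, 158 and 162 CPM in M833, M894, M896 and M898 and 148, 152, 146 and 156 CPM in M893, M901, M902 and M909. M894 had the lowest level of all 8 mice, and the other 3 controls were above all Rbfox2 KD mice by a small margin. Between the groups the log2 fold change was -0.05 (95% interval -0.14 to 0.05, unadjusted p = 0.300, adjusted p = 0.672, edgeR quasi-likelihood test).

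Hif3a (chromosome 7, 17031507 to 17062427, minus strand) encodes a member of the hypoxia-inducible factor family, some of whose isoforms oppose the others. It had 14.1 CPM in M833, 8.67 in M894, 16.7 in M896 and 17.6 in M898, and 6.93, 6.95, 7.81 and 8.20 CPM in M893, M901, M902 and M909. All Rbfox2 KD mice were below all controls, and M894 was the control nearest to them. The mean was 7.47 ± 0.632 CPM (SD, n = 4) in Rbfox2 KD and 14.3 ± 4.01 CPM (SD, n = 4) in control retinas, 52.4% of the control level. The log2 fold change of -0.93 (95% interval -1.35 to -0.52) had the lowest p of the 10 genes (unadjusted p = 0.000533, adjusted p = 0.116, edgeR quasi-likelihood test), and the exact permutation p was 0.0286.

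Mt1 and Mt2 encode metallothioneins, small cysteine-rich proteins that bind zinc and copper. Both genes lie on the plus strand of chromosome 8 (94179082 to 94180327 and 94172664 to 94173568), 5513 bases apart. Mt1 had 39.9, 48.9, 41.6 and 54.8 CPM in M833, M894, M896 and M898 and 29.7, 28.6, 33.0 and 41.2 CPM in M893, M901, M902 and M909. Mt2 had 12.9, 16.5, 16.0 and 20.4 CPM in these controls and 9.04, 8.31, 9.76 and 15.5 CPM in the Rbfox2 KD mice. For both genes M898 was the highest control, M909 was the only Rbfox2 KD mouse within the control range, and M894 was not low. The log2 fold change was -0.48 for Mt1 (95% interval -0.77 to -0.19, unadjusted p = 0.00391, adjusted p = 0.215) and -0.63 for Mt2 (95% interval -1.07 to -0.18, unadjusted p = 0.0103, adjusted p = 0.259), both by the edgeR quasi-likelihood test, and the exact permutation p was 0.0571 for each. M909 is the library with surface epithelium genes, and their part in its metallothionein level was not tested. Without M909, the log2 fold change was -0.61 for Mt1 and -0.86 for Mt2. Without M901 and M902 it was -0.39 and -0.42, and with 1 surrogate variable in the model -0.30 and -0.32, where neither gene reached an unadjusted p under 0.05. Mt2 shares exon sequence with the antisense gene Gm45774, and the sources used here do not say whether counting used strand.

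Plin4 (chromosome 17, 56100591 to 56109803, minus strand) encodes a perilipin, a coat protein of lipid droplets. It was the least abundant of the 10 genes, with 209 to 1754 counts per library. Levels were 4.43, 5.13, 4.80 and 9.90 CPM in M833, M894, M896 and M898, and 4.02, 1.58, 1.32 and 3.23 CPM in M893, M901, M902 and M909. The groups did not overlap, M898 stood far above the other controls, and the 2 lowest levels were those of M901 and M902. The log2 fold change was -1.26 (95% interval -2.10 to -0.42, unadjusted p = 0.00767, adjusted p = 0.239 by edgeR's quasi-likelihood test, exact permutation p = 0.0286). Without M901 and M902 it was -0.75, and with 1 surrogate variable in the model -0.54. Plin4 shares exon sequence with Hdgfl2 on the opposite strand, listed in the table under its older symbol Hdgfrp2, which had 84.7 to 92.0 CPM in controls and 85.0 to 94.0 CPM in Rbfox2 KD mice.

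**Figure D2:**
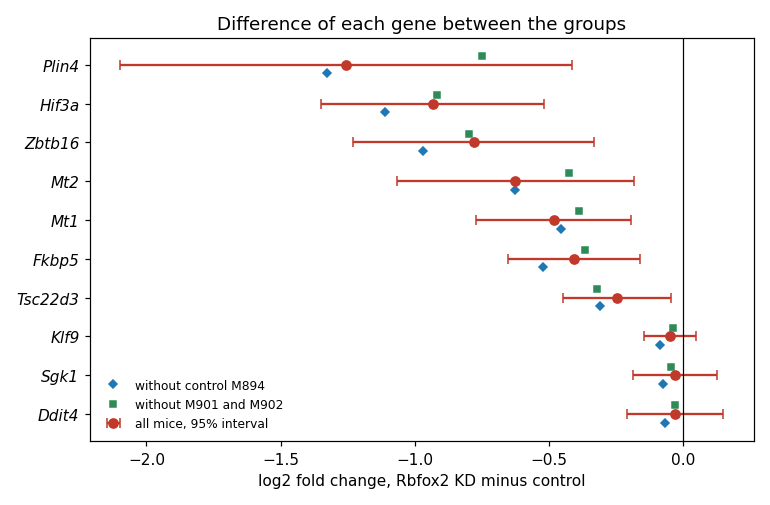
Log2 fold change of Rbfox2 KD against control retinas (horizontal axis, negative values lower in Rbfox2 KD) for the 10 genes, with 95% intervals from the fit of all 8 mice (red circles) and the estimates without control M894 (blue diamonds) and without M901 and M902 (green squares). The intervals of Klf9, Sgk1 and Ddit4 include 0, and the estimate for Plin4 moves from -1.26 to -0.75 without M901 and M902.

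Of the 10 genes, 0 had an adjusted p under 0.05 by edgeR's quasi-likelihood test, against 0.0655% of all genes tested. At an unadjusted p under 0.05, 7 of 10 were lower and none higher, where 6.87% of all genes were lower and 6.42% higher. The 3 that did not reach this level were Sgk1, Klf9 and Ddit4. The median log2 fold change was -0.44, beside 0.0016 over all genes tested. The levels of all Rbfox2 KD mice were below all controls for 2 of 10 genes, Hif3a and Plin4, as for 3.39% of all genes. By DESeq2, 3 of 10 genes (Fkbp5, Mt1 and Hif3a) were lower at an adjusted p under 0.05, against 1.36% of all genes, and by edgeR's likelihood ratio test 3 of 10 (Zbtb16, Mt1 and Hif3a) were, against 0.5% of all genes.

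The order of the controls recurred from gene to gene. M898 had the highest control level for 10 of the 10 genes, a position it held for 27.1% of all genes tested. M894 had the lowest control level for 7 of the 10, Fkbp5, Tsc22d3, Sgk1, Zbtb16, Klf9, Ddit4 and Hif3a, and for 26.8% of all genes tested, whereas M833 was lowest for Mt1, Mt2 and Plin4. In M894, Zbtb16 was at 50.9% and Hif3a at 53.7% of the mean of the other 3 controls, Fkbp5 at 69.0%, and Mt1 and Mt2 at 108% and 100.1%. For 5 of the 10 genes M894 was within the range of the Rbfox2 KD mice. Pigment epithelium markers summed to 909.1 CPM in M898 and 763 CPM in M894, against 571 to 590 CPM in the other controls and 535 to 752 CPM in Rbfox2 KD mice, and their part in the spread was not tested.

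Leaving out M894 changed the calls. Without it, 3 of the 10 genes had an adjusted p under 0.05 by edgeR's quasi-likelihood test, namely Fkbp5 (log2 fold change -0.52, adjusted p = 0.0167), Zbtb16 (-0.97, adjusted p = 0.0179) and Hif3a (-1.11, adjusted p = 0.00887), 8 had an unadjusted p under 0.05, and the groups did not overlap for 6. In the same fit, 0.0769% of all genes were lower by the first measure, 5.71% by the second and 5.64% by the third. Over all 18 alternatives the adjusted p ranged from 0.0120 to 0.788 for Fkbp5, from 0.0179 to 0.715 for Zbtb16 and from 0.00103 to 0.589 for Hif3a. No label sets M894 apart, so the result with all 8 mice is the one given above. M894 was the lowest control for 7 of the 10 genes, so that larger differences for them follow from leaving it out. Without M898, the highest control for all 10, log2 fold changes were -0.34 for Fkbp5, -0.66 for Zbtb16, -0.82 for Hif3a and -0.92 for Plin4. In that fit 0 of the 10 had an adjusted p under 0.05 by edgeR's quasi-likelihood test. Without M909, and likewise without M833, the groups did not overlap for 4 genes, Mt1 and Mt2 joining Hif3a and Plin4, where 7.24% of all genes were lower without overlap in the absence of M909 and 8.18% in that of M833. Without M901 and M902, 6 of the 10 genes kept an unadjusted p under 0.05, Mt2 being the one lost (2.46% of all genes were lower at that level), and the groups did not overlap for 3 (6.71% of all genes). With 1 surrogate variable, 5 of the 10 had an unadjusted p under 0.05, beside 2.65% of all genes lower.

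A further 30 genes known to be induced by glucocorticoids were listed from general knowledge, and 29 of them were tested. Earlier results of these data were known when they were listed, so that their counts are not an independent check. None had an adjusted p under 0.05 by edgeR's quasi-likelihood test, 15 were lower and 0 higher at an unadjusted p under 0.05, and 14 did not reach it. Of all genes tested, 6.87% were lower and 6.42% higher at that level. The count of 15 became 11 without M901 and M902 (2.46% of all genes were lower there). It became 10 with 1 surrogate variable (2.65% of all genes). With a term for high Xist it was also 10, and the share of all genes is not given for that fit. The median log2 fold change of the 29 was -0.24, and for 10 of them all Rbfox2 KD mice were below all controls, beside 3.39% of all genes. Per1, a clock gene with a glucocorticoid response element, had the lowest p, with 133 to 146 CPM in controls and 111 to 127 CPM in Rbfox2 KD mice (log2 fold change -0.26, adjusted p = 0.0853, edgeR quasi-likelihood test). Fam107a, an actin-binding protein of stress responses, had 31.3 to 54.5 CPM in controls and 17.9 to 24.7 CPM in Rbfox2 KD mice (-0.91, adjusted p = 0.0875, same test). Arrdc2, an arrestin-domain protein, had 17.0 to 26.3 CPM in controls and 13.2 to 14.8 CPM in Rbfox2 KD mice (-0.61, adjusted p = 0.104, same test). Gjb6, the connexin of astrocytes, was barely detected, with 0.141 to 0.277 CPM against 0.0677 to 0.0726 CPM (-1.52, adjusted p = 0.102, same test). M894 was the lowest control for 11 of the 29 genes, beside 26.8% of all genes tested.

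**Figure D3:**
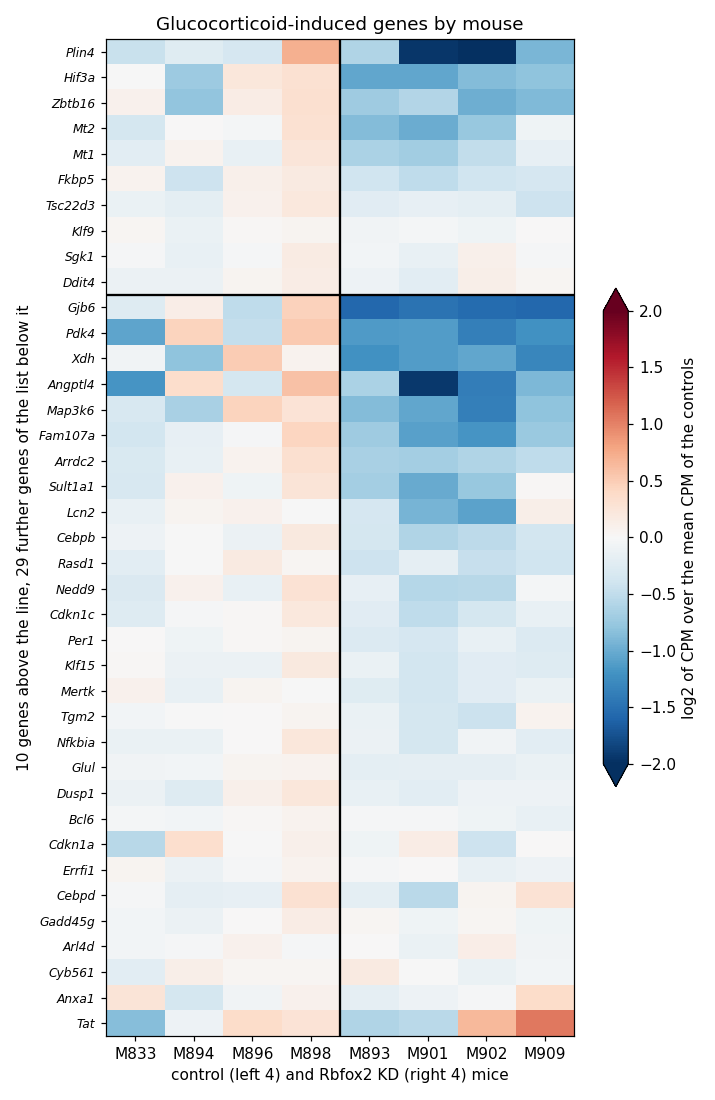
Log2 ratio of each gene's CPM in a mouse to the mean CPM of the controls (colour, blue below and red above, limited to the range -2 to 2) for the 10 genes (above the line) and the 29 further glucocorticoid-induced genes tested (below it), by mouse. M898 is the reddest control column for the 10 genes, M894 is blue for Hif3a, Zbtb16 and Fkbp5, and M901 and M902 are darkest for Plin4.

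The receptors and the enzymes and transporters that set hormone levels were examined next. Nr3c1, the glucocorticoid receptor, had 114, 103, 108 and 105 CPM in M833, M894, M896 and M898 and 104, 107, 109.9 and 116 CPM in M893, M901, M902 and M909. The groups overlapped, with a log2 fold change of 0.02 (95% interval -0.07 to 0.12, adjusted p = 0.862, edgeR quasi-likelihood test). Nr3c2, the mineralocorticoid receptor, which also binds glucocorticoids, had 36.1 to 39.0 CPM in controls and 33.7 to 34.9 CPM in Rbfox2 KD mice without overlap (-0.14, adjusted p = 0.215, same test). Hsd11b1, which regenerates active hormone, had 0.469 to 0.745 CPM in controls and 0.516 to 0.895 CPM in Rbfox2 KD mice (0.14, adjusted p = 0.819, same test). Hsd11b2, which inactivates it, had 0.345 to 0.639 CPM and 0.363 to 0.438 CPM (-0.41, adjusted p = 0.436, same test). Abcb1a, the P-glycoprotein transporter that exports steroids at blood-tissue barriers, had 10.6 to 13.7 CPM in controls and 6.22 to 8.42 CPM in Rbfox2 KD mice (-0.65, adjusted p = 0.0853, same test). Of the 7 genes of this list, 2 were lower and 0 higher at an unadjusted p under 0.05, beside 6.87% and 6.42% of all genes.

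Of 23 chaperones and coregulators of the receptor tested, 0 were lower and 5 higher at an unadjusted p under 0.05, with a median log2 fold change of 0.041. At that level 6.87% of all genes were lower and 6.42% higher. St13 (0.19), Hspa8 (0.29), Hspa4 (0.13) and Stip1 (0.18), which are chaperones or co-chaperones, had log2 fold changes with adjusted p between 0.262 and 0.344 by edgeR's quasi-likelihood test. For each of these genes M909 was the lowest Rbfox2 KD mouse. Of 15 genes that glucocorticoids repress, mostly cytokines and adhesion molecules, 8 were tested. Their log2 fold changes were positive for 6 and negative for 2, with a median of 0.077. Of the 8, only Cxcl10 reached an unadjusted p under 0.05, and it was lower in Rbfox2 KD retinas, with 0.0565 to 0.517 CPM in controls and 0.0341 to 0.109 CPM in Rbfox2 KD mice. It was scarce, with 6 to 99 counts per library, and M896 was its highest control. Its adjusted p was 0.324 by edgeR's quasi-likelihood test, and its exact permutation p was 0.114.

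Close relatives of the 10 genes gave a mixed picture, with 4 of 21 lower and 1 higher at an unadjusted p under 0.05. At that level 6.87% of all genes were lower and 6.42% higher. Plin5, the perilipin gene 1797 bases from Plin4, was near the detection floor at 0.115 to 0.238 CPM in controls and 0.0417 to 0.0674 CPM in Rbfox2 KD mice (log2 fold change -1.67, adjusted p = 0.127, edgeR quasi-likelihood test). Klf13 (-0.29) and Klf2 (-0.41), Krüppel-like factors like Klf9, were lower with adjusted p of 0.192 and 0.349, and Fkbp2 (0.24), an immunophilin of the endoplasmic reticulum, was higher with an adjusted p of 0.0837, same test. Among 8 genes of the metal response, which include Mt1 and Mt2, 4 were lower and 1 higher at an unadjusted p under 0.05. Slc30a1, the zinc exporter induced with the metallothioneins, had 41.6 to 45.2 CPM in controls and 34.4 to 39.4 CPM in Rbfox2 KD mice (-0.26, adjusted p = 0.116), and Slc39a10, a zinc importer, had 44.5 to 50.7 CPM and 47.6 to 54.6 CPM (0.17, adjusted p = 0.280, edgeR quasi-likelihood test).

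**Figure D4:**
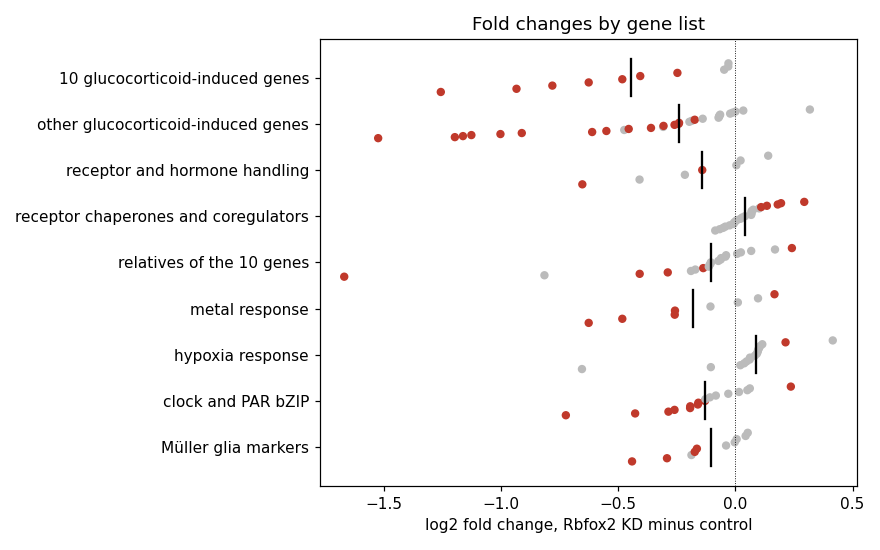
Log2 fold change of Rbfox2 KD against control retinas (horizontal axis) for each tested gene of 9 lists, red where the unadjusted p was under 0.05 and grey otherwise, with the median of each list as a black bar. The medians are -0.44 for the 10 genes and -0.24 for the 29 further glucocorticoid-induced genes, and the metal response list includes Mt1 and Mt2 again.

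Of the 17 clock and PAR bZIP genes, several of which are also glucocorticoid targets, 9 were lower and 1 higher at an unadjusted p under 0.05, and Per1 is counted in both lists. At that level 6.87% of all genes were lower and 6.42% higher. M894 was the lowest control for 11 of these 17 genes and for 7 of the 10, beside 26.8% of all genes tested. Other lists varied: M894 was lowest for 7 of 9 lens markers and 4 of 7 receptor and hormone handling genes. It was lowest for 0 of 10 endothelial and 0 of 11 pigment epithelium markers. Ciart, a clock repressor, had 9.55 CPM in M894, 13.3 to 16.3 CPM in the other controls and 7.09 to 8.59 CPM in Rbfox2 KD mice. The time of day within the morning hour of dissection was not given for single mice.

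Marker lists were examined because the 10 genes can be expressed outside retinal neurons. Their counts stand beside 6.87% of all genes lower and 6.42% higher at an unadjusted p under 0.05. Of 10 Müller glia markers, 4 were lower and 0 higher at an unadjusted p under 0.05 (Car14, Prdx6, Glul and Dkk3), and their summed level was 6414 to 7126 CPM in controls and 5703 to 6433 CPM in Rbfox2 KD mice. Glul, glutamine synthetase, is itself induced by glucocorticoids and is in both lists. Endothelial markers had 3 of 10 lower (224 to 284 CPM in Rbfox2 KD, 247 to 271 CPM in controls), pericyte markers 2 of 8 (41.3 to 56.3 CPM and 51.5 to 65.6 CPM), and astrocyte markers 0 of 6 (606 to 628 CPM and 588 to 709 CPM), with none higher. Ciliary epithelium markers had 1 of 8 lower and summed to 224 CPM in M901 and 236 CPM in M902, the mice with the lowest Plin4. The sum was 264 CPM in M893 and 270 CPM in M909, against 262 to 351 CPM in controls. Of the other lists, fibroblast (1 of 8), pigment epithelium (3 of 11), lens (1 of 9) and microglia (1 of 9) markers had lower and no higher genes, the 1 blood marker tested reached no such p, surface epithelium (5 of 6) and photoreceptor (4 of 10) markers had higher and no lower genes, and inner retina markers had 1 lower and 1 higher of 12. No gene of the Müller glia, endothelial, pericyte, astrocyte, ciliary or pigment epithelium lists was at 0 in any mouse, and their part in the levels of the 10 genes was not tested.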

How the data were processed

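RNA-seq counts of whole retinas from 4 Rbfox2 KD and 4 control mice were used, 1 library per mouse, with groups taken from the labels. The authors aligned reads to mm10 with STAR, counted uniquely mapped fragments per gene with HTSeq and deposited raw counts beside FPKM values. CASAVA 1.8.2 and edgeR are named in the submitters' processing notes. The deposited FPKM values were used only to order genes by level. The 16 further per-mouse columns (ratios and normalized counts) and the authors' fold changes, p-values and FDR were not used.

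In R 4.3.3 with edgeR 4.0.16, filterByExpr kept 16797 genes, TMM set the library sizes, and the groups were compared by the quasi-likelihood test with Benjamini-Hochberg adjustment over these genes and no covariate. Intervals are 95% intervals of that fit. Single genes were also compared by exact two-sided permutation of mean log2(CPM + 1). Depth was 160630226 to 211283591 counts, so that precision depends mainly on the 4 mice per group, and floors cover counting error only. The labels do not say how the mice were related. The fit was tested on simulated counts, with changes of a single fixed size planted in genes that were not scarce. Power for smaller changes was not measured.

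The 10 genes and all gene lists were chosen from general knowledge with earlier results of these data known. All 10 are named, and from each other list the receptor and hormone enzyme genes and up to 4 genes with the lowest p. Cxcl10, Car14, Prdx6, Glul and Dkk3 fall under this rule, and Hdgfl2 and Gm45774 are named for their overlap. Genes were placed on GENCODE M21 (GRCm38) by symbol. Promoter windows came from RefSeq on GRCm38.p6. The alternatives tried were other tests (DESeq2 1.42.0, the likelihood ratio test of edgeR, voom of limma 3.58.1), other scalings (upper quartile, RLE), other count filters (none, or 10 counts in each library), 1 mouse left out at a time, the fit lacking M901 and M902, a term for high Xist, and 1 surrogate variable (sva 3.50.0).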

Additional observations from a re-analysis of the deposited data

Results flagged for a closer look

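In 82 groups of 4 mice, those of 41 named genes, 1 mouse was far from the other 3 in 5 cases, measured as its gap to the nearest mouse over the range of the group. Chance flags about 1 in 20 groups, or 4.1 here, so that single cases carry little weight. Plin4 had 9.90 CPM in control M898, against 4.43 to 5.13 CPM in the other controls. Abcb1a had 6.22 CPM in Rbfox2 KD mouse M902, against 8.17 to 8.42 CPM in the others of its group. Hspa4 had 239.9 CPM in control M833, against 211 to 216 CPM. Ciart had 7.09 CPM in Rbfox2 KD mouse M901, against 8.45 to 8.59 CPM. Per2 had 40.1 CPM in Rbfox2 KD mouse M902, against 31.4 to 32.5 CPM.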

How the results depend on the processing

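The quasi-likelihood test called 11 of all genes and 0 of the 10 glucocorticoid-induced genes at an adjusted p under 0.05. DESeq2 called 460 and 3, and edgeR's likelihood ratio test 164 and 3. Without M901 and M902, 1 gene was called in all, with a term for high Xist 4, and with 1 surrogate variable 5, none of them among the 10. With each mouse left out in turn, 5 to 35 genes were called in all and 0 to 3 of the 10, 6 to 8 of the 10 had an unadjusted p under 0.05, the groups did not overlap for 2 to 6, and 13 to 19 of the 29 further glucocorticoid-induced genes had an unadjusted p under 0.05. Outside these omissions the last count was lowest at 10, with 1 surrogate variable and with the term for high Xist, and that of the 10 genes at 5, with the surrogate variable. With the surrogate variable 2.65% of all genes were lower at that level, and no share is given for the term. Without M894, 5.71% of all genes were lower at an unadjusted p under 0.05 and 5.64% were lower without overlap. The share lower without overlap was 7.24% in the absence of M909 and 8.18% in that of M833. For omissions of 1 mouse other than M894, no share of all genes is given at the unadjusted level. Their counts at that level cannot be read against the 6.87% of the fit with all mice. The log2 fold changes of 8 of the 10 genes stayed negative in all 18 alternatives. With each mouse left out in turn, the log2 fold change of Sgk1 ranged from -0.076 to 0.030 and that of Ddit4 from -0.085 to 0.024. Both turned positive in 2 alternatives each, without M898 and without M901, where Sgk1 had 0.030 and 0.0062 and Ddit4 had 0.024 in both. The causes were not tested. No paired analysis was possible because the labels name each mouse by its own number and carry no replicate number that the groups share. Of the 15 glucocorticoid-repressed genes, 3 did not pass the count filter and 8 were tested.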

Other observations

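Hif3a and Ddit4 are also known as genes that hypoxia can induce. In a list of 16 other hypoxia-induced genes, 0 were lower and 1 was higher in Rbfox2 KD retinas at an unadjusted p under 0.05, beside 6.87% and 6.42% of all genes. Of the 16 log2 fold changes, 14 were positive, with a median of 0.087. P4ha1, a collagen prolyl hydroxylase subunit, had 59.2 to 68.5 CPM in controls and 66.6 to 78.6 CPM in Rbfox2 KD mice (log2 fold change 0.21, adjusted p = 0.228, edgeR quasi-likelihood test). Ldha, lactate dehydrogenase A, had 950.2 to 1001 CPM and 979 to 1079 CPM (0.10, adjusted p = 0.381, same test), and Ndrg1 had 270.5 to 288 CPM and 273 to 321 CPM (0.10, adjusted p = 0.438, same test).

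The ratio of Mt1 to Mt2 counts was 2.60 to 3.09 in controls and 2.66 in M909, against 3.29, 3.44 and 3.38 in M893, M901 and M902.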
